A study of Mus musculus with 4 samples.

Results

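The oxidative stress defence genes of the mouse heart were described as a set of 35 genes, chosen by name from the families that remove superoxide and peroxides, keep glutathione and thioredoxin reduced, conjugate oxidised lipids, break down heme and bind metals. Of these, 32 had at least 1 probe set that carried their gene symbol alone, of 8251 genes on the array with such a probe set. Prdx1 lay only on 2 probe sets that also list another symbol, and Prdx5 and Prdx6 had no probe set, so these 3 were not analysed here. All 32 genes were bright enough to be tested, on 41 of their 43 probe sets. Where a gene had several, the one with the highest mean signal stood for it.

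The study set heterozygous hearts against wild-type hearts, with 2 pools of 5 hearts for each genotype, measured on 1-colour arrays with total RNA of whole heart. Every heart came from an adult male of 8 to 16 weeks, on a mixed 129/Black Swiss background. The gene in which the mice were heterozygous, and its own signal, are not reported here. Nothing in the labels says that the pools of a genotype came from different animals, so p-values measure the spread between these 4 samples, which may be technical. A pool of 5 hearts also hides the spread between animals, and no other limit of the model is stated.

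Superoxide made by mitochondria and by oxidases is turned into hydrogen peroxide by superoxide dismutases, and the peroxide is then removed by catalase, glutathione peroxidases and peroxiredoxins. The peroxidases draw electrons from glutathione and thioredoxin, which are reduced again with NADPH. Many of these genes carry antioxidant response elements bound by NRF2, the product of Nfe2l2, while metallothionein genes answer to zinc and to glucocorticoids. The heart beats without pause on mitochondrial respiration, so its muscle cells hold many mitochondria and depend on these enzymes.

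On the deposited scale, 15 of the 32 genes were higher in the heterozygous pools, 1 was lower and 16 missed the threshold of limma's test at an adjusted p of 0.05. Of all 7453 tested probe sets, 17.9% passed as higher and 20.4% as lower. Of the set's genes 46.9% passed as higher. The background of 17.9% also counts dimmer probe sets, whereas each gene of the set stood by its brightest. With the 60% dimmest probe sets left out, 16 genes of the set and 24.7% of all tested probe sets passed as higher. With the probe sets of each gene averaged, 14 genes of the set and 18.9% of all entries passed as higher. The median log2 change of the 32 genes, heterozygous minus wild type, was 0.45, beside 0.0011 over all tested probe sets. Pools of the genotypes did not overlap for 23 genes, or 71.9%, which is close to the 70.1% of all tested probe sets. Without 1 pool the count of higher genes was 5 (heterozygous pool 1), 4 (heterozygous pool 2), 8 (wild-type pool 1) or 11 (wild-type pool 2). It was 5 with no filter on dim probe sets. Gpx3 and Mt1 changed by more than 2-fold, and no other gene of the set did. The genes that passed lay between log2 changes of 0.43 (Prdx3) and 1.32 (Gpx3), apart from Txn1 at -0.91.

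The arrays had been scaled to nearly the same mean signal with 2% trimmed off each end, and transcripts of other tissues moved between the genotypes. All 10 tested markers of lymphocyte and thymus were lower by their brightest probe sets. Their summed signal was 13280.2 and 13295 in heterozygous pools against 117224 and 117723 in wild-type pools. A dimmer Rag1 probe set did not pass (log2 change 0.61). Of the 7 heart muscle markers, 6 were higher and 1 did not pass, with sums of 723224 and 724471 in heterozygous pools against 534888 and 478901 in wild-type pools. The lowest single signal among them was 50651.5, so the muscle markers of the labelled tissue were bright in every pool. Cell division markers were lower in 7 of 7 cases, with sums of 5186 and 4777 in heterozygous against 33198 and 32405 in wild-type pools. Of 4 endothelial markers 3 were higher, with sums of 10296.5 and 10242 in heterozygous against 4849 and 5527 in wild-type pools. By their brightest probe sets all 5 fibroblast markers were higher, with sums of 76341 and 81582 in heterozygous against 41239 and 44338 in wild-type pools. Dcn alone gave 54660 and 57904 against 30259 and 30231 of these. A dimmer Col1a1 probe set (log2 change -0.053) and the dimmer Col3a1 probe sets did not pass, while that of Col1a2 was higher. An untested Pdgfra probe set was lower in heterozygous pools (means of 146 against 357). Both tested lung markers were higher, with sums of 54702 and 47146 in heterozygous against 21616 and 18597 in wild-type pools. Of 3 erythroid markers 2 were higher, with sums of 160812 and 176598 in heterozygous against 144105 and 128666 in wild-type pools. Of 6 tested macrophage markers 1 was lower and 5 did not pass, with sums of 20836 and 20930.4 in heterozygous against 23395 and 21210.4 in wild-type pools. The 3 adipose markers did not pass (16155 and 15166 in heterozygous against 13025 and 14722 in wild-type pools), and the 3 liver markers were too dim to test, with sums from 307 to 519 over the 4 pools. In tissue of mixed cells, fewer cells of a type and less of its RNA per cell cannot be told apart, and the part that any of these shifts has in the results below was not tested.

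Each change was also expressed relative to the contractile genes. The 22 sarcomere genes used for this were themselves uneven on the deposited scale. Their log2 changes ran from 0.20 to 1.88, with 17 higher and 5 not passing. With all arrays centred on 22 sarcomere genes, which lowers each log2 change by 0.72, 2 of the 32 genes (Gpx3 and Mt1) were higher, 11 were lower and the set's median was -0.26. In that scaling 2.12% of all tested probe sets passed as higher and 58.4% as lower. The heart muscle markers then had a median of -0.11, and 3 of 7 were lower. These markers include sarcomere genes such as Actc1, so a small median there follows in part from the centring itself. The direction of the set as a whole therefore turns with the scaling, whereas Gpx3 and Mt1 were higher in the main analysis and in all 15 alternatives.

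**Figure D1:**
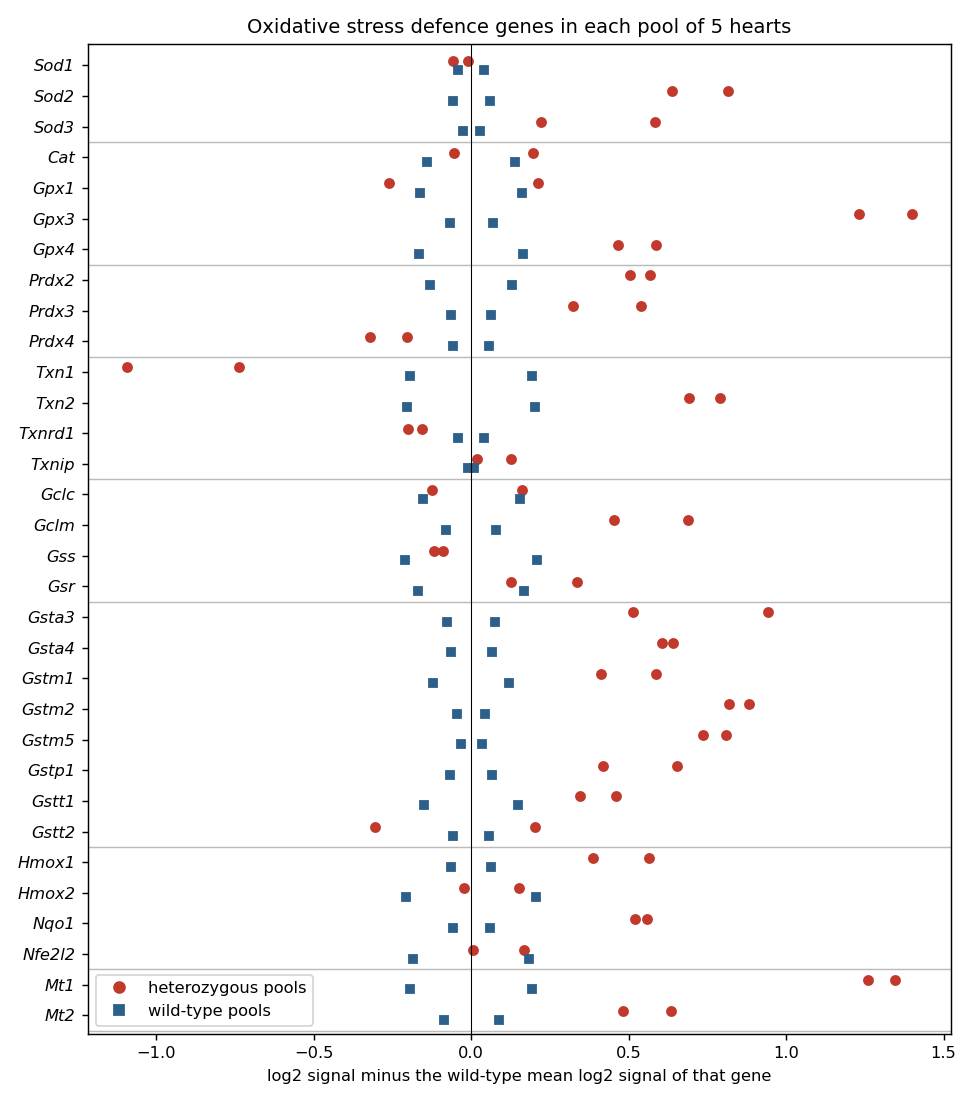
Log2 signal of each of the 32 genes in each pool, relative to the mean log2 signal of its wild-type pools (circles, heterozygous pools; squares, wild-type pools; horizontal lines separate the families). Circles lie to the right of both squares for 20 genes, farthest for Gpx3 and Mt1, and to the left for Prdx4, Txn1 and Txnrd1. With arrays centred on the sarcomere list, the difference between the genotype means falls by 0.72 for every gene.

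Among the superoxide dismutases, the mitochondrial manganese enzyme rose while the cytosolic one did not pass. Sod2 had signals of 7564.5 and 8557 in the heterozygous pools, against 4669 and 5063 in the wild-type pools. Both heterozygous pools stood above both wild-type pools, and Sod2 rose 1.65-fold (log2 change 0.73, SE 0.15, adjusted p = 0.00473), with 0.0082 relative to the sarcomere genes. Sod1, the copper-zinc enzyme of the cytosol, had 10843 and 11209.5 in the heterozygous pools, against 11625 and 10969 in the wild-type pools. Its pools overlapped (log2 change -0.035, SE 0.13, adjusted p = 0.862). Sod3, the copper-zinc enzyme secreted into the extracellular matrix, had 2595 and 2020.0 in the heterozygous pools, against 1698 and 1763 in the wild-type pools, without overlap but short of the threshold (log2 change 0.40, SE 0.18, adjusted p = 0.111; -0.31 relative to the sarcomere genes). Relative to the sarcomere genes Sod1 was lower (-0.75). The Sod2 call ended without heterozygous pool 2 (0.64).

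In the peroxide-removing group, Gpx3 rose most of all 32 genes. Gpx3 encodes the plasma glutathione peroxidase, a secreted selenoenzyme. Its signals were 36704.5 and 41191 in the heterozygous pools, against 16365 and 14896 in the wild-type pools. The lower heterozygous pool was more than 2 times the higher wild-type pool, and the means were 38948 ± 3172 in heterozygous and 15631 ± 1039 in wild-type pools (SD, n = 2 each; 2.49-fold, log2 change 1.32, SE 0.13, adjusted p = 1.49e-04). Relative to the sarcomere genes its log2 change was 0.60 (SE 0.12, adjusted p = 0.00265). It ranked 127 among the 7453 tested probe sets by increase. Gpx4, which reduces lipid hydroperoxides within membranes, had 7613 and 6995 in the heterozygous pools, against 4516 and 5682 in the wild-type pools. It rose 1.44-fold (log2 change 0.53, SE 0.16, adjusted p = 0.0301; -0.19 relative to the sarcomere genes), with pools apart. That call ended without heterozygous pool 1 (0.47), without heterozygous pool 2 (0.59), without wild-type pool 1 (0.36), under quantile normalization (0.45), under cyclic loess (0.39), with dim probe sets kept in and without a trend in the spread. Gpx1, the most widespread glutathione peroxidase of cytosol and mitochondria, had 1498 and 2080.0 in the heterozygous pools, against 1605 and 2008 in the wild-type pools, with overlapping pools (-0.024, adjusted p = 0.939). Catalase, of peroxisomes, also overlapped: Cat had 3085 and 3667 in the heterozygous pools, against 2906 and 3530.4 in the wild-type pools (0.070, adjusted p = 0.78), and its dimmer probe set gave -0.13, adjusted p = 0.666. Both Gpx1 and Cat were lower relative to the sarcomere genes (-0.74 and -0.65).

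**Figure D2:**
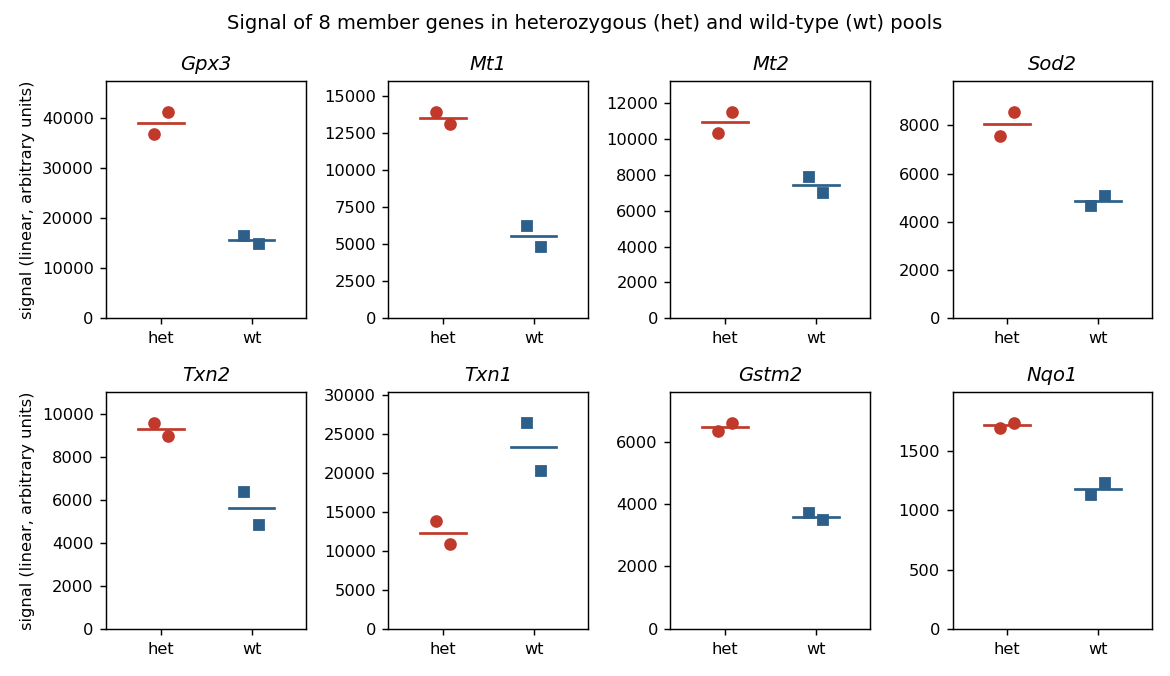
Linear signal (arbitrary units, axes from 0) of 8 genes in the 2 heterozygous pools (left in each panel, circles) and the 2 wild-type pools (right, squares), with a line at each mean. The pools are apart in all 8 panels: Txn1 is lower in heterozygous pools and the other 7 are higher, of which Mt2 and Nqo1 fall below 0 in log2 change when arrays are centred on the sarcomere list.

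Peroxiredoxins reduce peroxides with electrons from thioredoxin. Prdx2, abundant in the cytosol of many cells and in red cells, had 33768 and 35313 in the heterozygous pools, against 21732 and 26059.6 in the wild-type pools. It rose 1.45-fold (log2 change 0.54, SE 0.14, adjusted p = 0.0147), beside erythroid marker sums of 160812 and 176598 in heterozygous against 144105 and 128666 in wild-type pools. A second Prdx2 probe set did not pass (0.51, adjusted p = 0.269) and another was too dim to test. Prdx3, the mitochondrial peroxiredoxin, had 13074 and 15184.5 in the heterozygous pools, against 10000.0 and 10911 in the wild-type pools and rose 1.35-fold (log2 change 0.43, SE 0.14, adjusted p = 0.0400). Prdx4, of the endoplasmic reticulum, had 1670.3 and 1541 in the heterozygous pools, against 1850.5 and 2004 in the wild-type pools. Its heterozygous pools were below the wild-type pools, but the difference did not pass (log2 change -0.26, SE 0.17, adjusted p = 0.248). Relative to the sarcomere genes the log2 changes of Prdx2 and Prdx3 were -0.18 and -0.29, and Prdx4 was lower at -0.98. The Prdx2 call ended without heterozygous pool 1 (0.57), without heterozygous pool 2 (0.50), without wild-type pool 1 (0.41), under quantile normalization (0.34), under cyclic loess (0.24), with dim probe sets kept in and without a trend in the spread. The Prdx3 call ended without heterozygous pool 1 (0.54), without heterozygous pool 2 (0.32), without wild-type pool 1 (0.37), under quantile normalization (0.29), under cyclic loess (0.23), with dim probe sets kept in and without a trend in the spread.

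The thioredoxin genes moved in opposite directions. Txn1, the cytosolic thioredoxin, was the 1 gene of the set that fell, with signals of 13858 and 10833 in the heterozygous pools, against 26427 and 20185 in the wild-type pools. The higher heterozygous pool was well below the lower wild-type pool, and Txn1 was 1.89-fold lower (log2 change -0.91, SE 0.18, adjusted p = 0.00404; -1.63 relative to the sarcomere genes). Markers of lymphocyte and thymus fell in the same pools, to summed signals of 13280.2 and 13295 in heterozygous against 117224 and 117723 in wild-type pools, and their part in the Txn1 result was not tested. The call ended without heterozygous pool 2 (-0.74) and with dim probe sets kept in. Txn2, the mitochondrial thioredoxin, had 9594 and 8969 in the heterozygous pools, against 6384 and 4822 in the wild-type pools. It rose 1.67-fold (log2 change 0.74, SE 0.17, adjusted p = 0.00829; 0.023 relative to the sarcomere genes), but lost its call without heterozygous pool 1 (0.69), without heterozygous pool 2 (0.79) and with dim probe sets kept in. Txnrd1, the cytosolic reductase of thioredoxin, had 2184 and 2255 in the heterozygous pools, against 2583 and 2441 in the wild-type pools and did not pass (-0.18, adjusted p = 0.407), although it was lower at -0.90 relative to the sarcomere genes. Txnip, which binds and inhibits thioredoxin, had 7803 and 8399.8 in the heterozygous pools, against 7643 and 7751 in the wild-type pools (0.073, adjusted p = 0.707), and its dimmer probe set did not pass either (0.19, adjusted p = 0.642). Txnip too was lower relative to the sarcomere genes (-0.65).

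Glutathione is made by glutamate-cysteine ligase, of a catalytic and a modifier subunit, and by glutathione synthetase. Gclm, the modifier subunit, had 1629 and 1386 in the heterozygous pools, against 1068 and 958 in the wild-type pools. It rose 1.49-fold (log2 change 0.57, SE 0.19, adjusted p = 0.0412), with pools apart, and its value was -0.15 relative to the sarcomere genes. That call ended without any 1 of the 4 pools (0.46 to 0.69), with dim probe sets kept in and without a trend in the spread. Gclc, the catalytic subunit, had 1405.5 and 1154 in the heterozygous pools, against 1130.1 and 1399.9 in the wild-type pools, so the genotypes overlapped (0.018, adjusted p = 0.953). Gss, the synthetase, had 1216 and 1241 in the heterozygous pools, against 1141.5 and 1528.5 in the wild-type pools (-0.10, adjusted p = 0.719), and its dimmer probe set did not pass either (0.58, adjusted p = 0.278). Gsr, the reductase that regenerates glutathione, had 1773 and 1531 in the heterozygous pools, against 1250.0 and 1576 in the wild-type pools (0.23, adjusted p = 0.38). Gclc and Gss were lower relative to the sarcomere genes (-0.70 and -0.82), and Gsr at -0.49 did not pass there.

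Glutathione S-transferases join glutathione to lipid peroxidation products and foreign compounds. On the deposited scale 5 of 8 rose in limma's test and 3 did not pass (62.5% higher, beside 17.9% of all tested probe sets), with a median log2 change of 0.58, which was -0.14 with arrays centred on the sarcomere list. Pools were apart for 7 of the 8, or 87.5%, beside 70.1% of all tested probe sets. Gstm2 and Gstm5, of the mu class, had the highest log2 changes of the 8. Gstm2, of muscle among other tissues, had 6329 and 6604 in the heterozygous pools, against 3697 and 3477 in the wild-type pools. It rose 1.80-fold (log2 change 0.85, SE 0.14, adjusted p = 0.00202), and its dimmer probe set rose as well (0.95, adjusted p = 0.0107). Gstm5 had 12211 and 12825 in the heterozygous pools, against 7499.8 and 7158 in the wild-type pools and rose 1.71-fold (log2 change 0.77, SE 0.13, adjusted p = 0.00229). Its second probe set rose too (0.88, adjusted p = 0.00415). Another, which differed widely between pools of the same genotype (240.0 and 1862 in heterozygous and 498 and 1498 in wild-type pools), did not pass (-0.37, adjusted p = 0.757), and the call of Gstm5 ended with the mean of its probe sets (0.43). Gstm1 had 23368 and 26371 in the heterozygous pools, against 16171 and 19096 in the wild-type pools and rose 1.41-fold (log2 change 0.50, SE 0.14, adjusted p = 0.0234), while its dimmer probe set did not pass (0.66, adjusted p = 0.0845). Mu class genes are close relatives, so their probe sets may share transcripts and are uncertain as 3 separate results. Gsta4, which handles the lipid aldehyde 4-hydroxynonenal, had 1677 and 1717.5 in the heterozygous pools, against 1153.5 and 1053 in the wild-type pools and rose 1.54-fold (log2 change 0.62, SE 0.18, adjusted p = 0.0217). Gstp1, of the pi class, had 20563 and 17473 in the heterozygous pools, against 13696 and 12481 in the wild-type pools and rose 1.45-fold (log2 change 0.54, SE 0.14, adjusted p = 0.0167). Gsta3 (log2 change 0.73, SE 0.30, adjusted p = 0.0844), Gstt1 (log2 change 0.40, SE 0.19, adjusted p = 0.121) and Gstt2 (log2 change -0.052, SE 0.21, adjusted p = 0.873) did not pass. Relative to the sarcomere genes, Gstm2 and Gstm5 kept small positive values (0.13 and 0.054), Gstm1, Gsta4 and Gstp1 fell below 0 (-0.22, -0.096 and -0.18), and Gstt2 was lower (-0.77). Leaving out any 1 of the 4 pools kept the calls of Gstm2 and Gstm5. The Gsta4 call ended without any 1 of the 4 pools (0.56 to 0.69) and with dim probe sets kept in. The Gstm1 call ended without heterozygous pool 1 (0.59), without heterozygous pool 2 (0.41), without wild-type pool 1 (0.38), under quantile normalization (0.32), under cyclic loess (0.23), with dim probe sets kept in and without a trend in the spread. The Gstp1 call ended without heterozygous pool 1 (0.42), without heterozygous pool 2 (0.65), under cyclic loess (0.30), with dim probe sets kept in and without a trend in the spread.

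Hmox1, the inducible heme oxygenase, and Nqo1, a quinone reductase, are 2 textbook targets of NRF2. Nqo1 had 1693.5 and 1738.5 in the heterozygous pools, against 1133 and 1228 in the wild-type pools. It rose 1.45-fold (log2 change 0.54, SE 0.17, adjusted p = 0.0361) with pools apart, while its dimmer probe set did not pass (0.42, adjusted p = 0.146). Its value was -0.18 relative to the sarcomere genes, and the call ended without any 1 of the 4 pools (0.48 to 0.60), with the mean of its probe sets (0.48), with dim probe sets kept in and without a trend in the spread. Hmox1 had 2108 and 2387 in the heterozygous pools, against 1545 and 1686 in the wild-type pools. Its pools did not overlap, but it did not pass (log2 change 0.48, SE 0.17, adjusted p = 0.0533). It did pass as higher under quantile normalization (0.58), under cyclic loess (0.49) and with arrays at a common median (0.65). The same held with the pool number as a block, with the 60% dimmest probe sets left out and with gene means. Hmox1 has 1 probe set, so gene means left its own value as it was. Relative to the sarcomere genes it was at -0.24. Hmox2, the constitutive heme oxygenase, had 656 and 582 in the heterozygous pools, against 512 and 682 in the wild-type pools (0.064, adjusted p = 0.872). Nfe2l2, the gene of NRF2 itself, had 3121 and 2788 in the heterozygous pools, against 2445 and 3155 in the wild-type pools, with overlapping pools (0.087, adjusted p = 0.735), and was lower relative to the sarcomere genes (-0.63).

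Both metallothioneins rose. These small cysteine-rich proteins bind zinc and copper and scavenge radicals. Mt1 had 13894 and 13094 in the heterozygous pools, against 6245 and 4775 in the wild-type pools. The lower heterozygous pool was more than 2 times the higher wild-type pool, and the means were 13494 ± 566 in heterozygous and 5510.1 ± 1039.9 in wild-type pools (SD, n = 2 each; 2.47-fold, log2 change 1.30, SE 0.16, adjusted p = 4.51e-04). Its log2 change relative to the sarcomere genes was 0.59 (SE 0.15, adjusted p = 0.00913). Mt2 had 10363 and 11521 in the heterozygous pools, against 7878.5 and 6976 in the wild-type pools and rose 1.47-fold (log2 change 0.56, SE 0.14, adjusted p = 0.0144). Its value was -0.16 relative to the sarcomere genes, and the call ended without heterozygous pool 1 (0.64), without heterozygous pool 2 (0.48), without wild-type pool 2 (0.47), under cyclic loess (0.39), with dim probe sets kept in and without a trend in the spread. Mt3 and Mt4, the less widespread members, did not follow. Mt3, named after its values were seen, did not pass (-0.27, adjusted p = 0.344) and was lower relative to the sarcomere genes (-0.99). Mt4 fell, with signals of 218 and 224 in the heterozygous pools, against 811 and 774 in the wild-type pools (log2 change -1.84, SE 0.30, adjusted p = 0.00179). The filter on dim probe sets took the mean over all pools, and Mt4 passed it through its wild-type signals.

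Mt1 and Mt2 are neighbours on chromosome 8 and rose unequally, and Mt2, Gclm and Gstm5 are the 3 genes past the threshold with an antioxidant response element core in the window searched, so these 4 promoters are shown. Each is the 250 bases before the RefSeq gene start (GRCm38.p6), 5′ to 3′ on the gene's strand. Capitals mark matches, on either strand, to the core of the antioxidant response element (TGACNNNGC) or to a loose form of the metal response element core (TGCNCNC). The loose form allows any base at its first N, where the element itself has A or G, and its matches are called metal response cores below. In Gclm, 1 match to each overlaps the other.
Mt1, chr8:94178839-94179088, plus strand: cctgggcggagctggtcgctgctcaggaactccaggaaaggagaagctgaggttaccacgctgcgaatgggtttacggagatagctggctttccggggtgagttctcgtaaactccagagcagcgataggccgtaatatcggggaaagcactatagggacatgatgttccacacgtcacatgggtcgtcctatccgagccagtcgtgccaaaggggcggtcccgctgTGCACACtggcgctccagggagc
Mt2, chr8:94172368-94172617, plus strand: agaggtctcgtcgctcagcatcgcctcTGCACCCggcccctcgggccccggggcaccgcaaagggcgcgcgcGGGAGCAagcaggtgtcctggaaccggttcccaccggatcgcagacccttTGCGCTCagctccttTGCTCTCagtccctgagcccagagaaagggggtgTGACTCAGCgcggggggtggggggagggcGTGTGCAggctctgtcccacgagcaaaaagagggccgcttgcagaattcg
Gclm, chr3:122245307-122245556, plus strand: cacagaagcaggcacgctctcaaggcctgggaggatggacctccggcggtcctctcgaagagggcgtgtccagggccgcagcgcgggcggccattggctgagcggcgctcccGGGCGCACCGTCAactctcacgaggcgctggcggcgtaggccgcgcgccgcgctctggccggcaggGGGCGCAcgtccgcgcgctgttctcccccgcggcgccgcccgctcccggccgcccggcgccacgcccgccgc
Gstm5, chr3:107895604-107895853, plus strand: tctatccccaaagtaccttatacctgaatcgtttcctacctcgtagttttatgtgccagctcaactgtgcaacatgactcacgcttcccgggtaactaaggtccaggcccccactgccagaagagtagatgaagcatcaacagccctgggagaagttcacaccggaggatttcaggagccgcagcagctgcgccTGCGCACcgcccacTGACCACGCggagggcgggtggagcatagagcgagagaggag
Mt2 held 5 metal response cores and 1 antioxidant response core in this window, and Mt1 held 1 metal response core. Of the 5 in Mt2, TGCTCTC and GGGAGCA match the loose form only. Gclm held 2 metal response cores and 1 antioxidant response core, and Gstm5 held 1 of each. Promoters were listed for 26 of the 32 genes, 34 windows in all with alternative starts. At least 1 antioxidant response core lay in 7 of the 34 windows (20.6%), against 10.2% of all 32851 windows, and at least 1 metal response core lay in 16 (47.1%), against 44.4%. Of the 18 windows of genes that rose, 3 held an antioxidant response core. Windows of Gsta3, Nfe2l2, Sod1 and Txnrd1, which did not pass, held it as well. At least 5 metal response cores, as in Mt2, were found in 0.344% of all windows. A match is a string of letters, not a bound site. The start listed by RefSeq need not be the one used in heart, and elements may lie outside this window, also downstream of the listed start.

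Ratios between 2 genes within a pool do not depend on a single factor per array, such as the sarcomere list or a common median gives. They do move under quantile normalization and cyclic loess, which adjust by signal: Gpx3 over Gpx1, for example, differed by 1.06 under quantile normalization and 1.03 under cyclic loess, against 1.34 as deposited. For 8 pairs of related genes, picked after their values were seen, the log2 ratio was compared between genotypes. With 2 pools a genotype, 0.333 is the smallest two-sided p of an exact permutation test, so the differences are given as sizes. Txn2 over Txn1 differed most, with a log2 ratio 1.66 higher in heterozygous pools. Gpx3 over Gpx1 was 1.34 higher, Sod2 over Sod1 was 0.76 higher and Mt1 over Mt2 was 0.74 higher. Smaller differences were those of Gclm over Gclc (0.55), Gpx4 over Gpx1 (0.55) and Hmox1 over Hmox2 (0.41). In these 7 pairs the genotypes did not overlap. No share over all gene pairs was computed, and for single probe sets the share without overlap was 70.1%. Most pairs set a gene that rose against one that did not, so the choice itself favoured pools apart. Prdx3 over Prdx2 was -0.11, with overlapping pools. Compartments were compared within the superoxide dismutases, peroxiredoxins and thioredoxin system only. There the 3 mitochondrial genes (Sod2, Prdx3 and Txn2) all passed as higher (17.9% of all tested probe sets did). Of the 4 cytosolic genes there (Sod1, Prdx2, Txn1 and Txnrd1) 1 was higher and 1 lower. On the sarcomere-centred scale, these 3 mitochondrial genes missed the threshold and 3 of these 4 cytosolic genes were lower. On that scale 58.4% of all tested probe sets were lower. The glutathione S-transferases (5 of 8 higher), metallothioneins (2 of 2), glutathione synthesis genes (1 of 4) and heme oxygenase group (1 of 4) were not sorted by compartment. The contrast therefore covers the named genes alone.

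**Figure D3:**
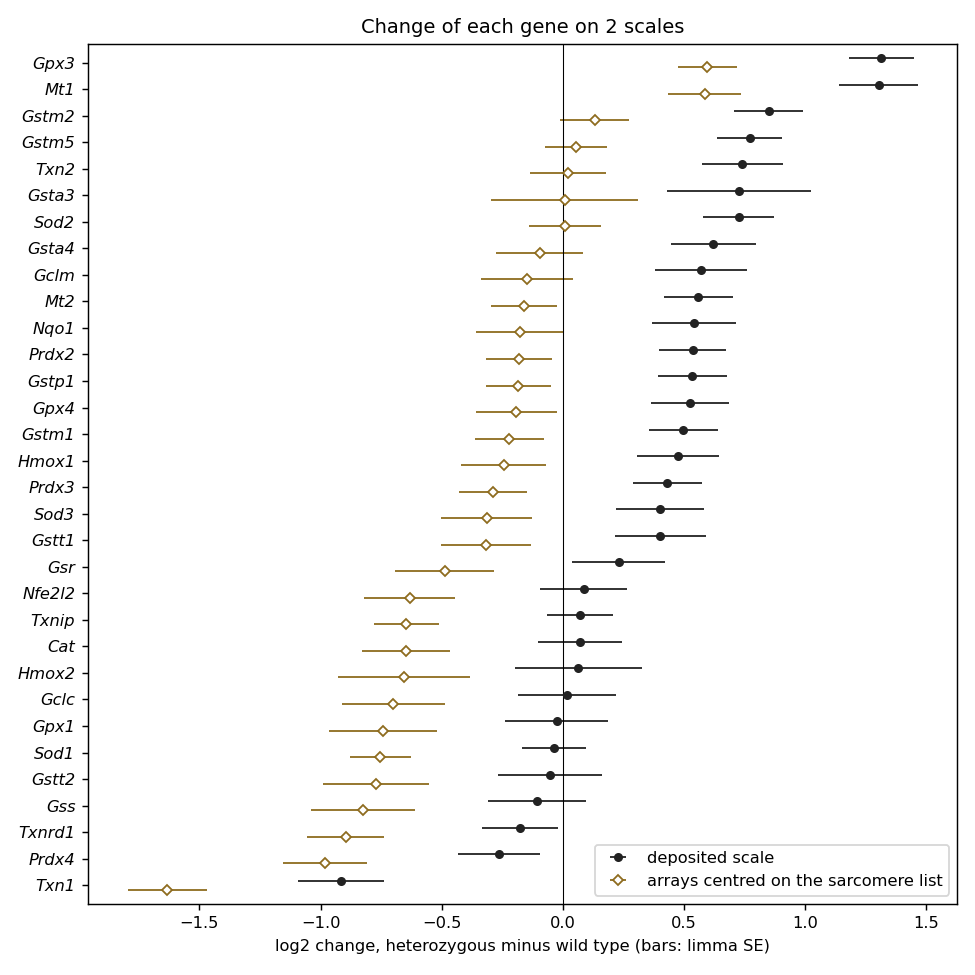
Log2 change of each of the 32 genes (points; bars are limma's standard errors), on the deposited scale (filled circles) and with all arrays centred on 22 sarcomere genes (open diamonds), ordered by the deposited change. Every gene shifts left by the same 0.72, which leaves Gpx3 (0.60) and Mt1 (0.59) above 0 and Txn1 at the far left (-1.63).

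**Figure D4:**
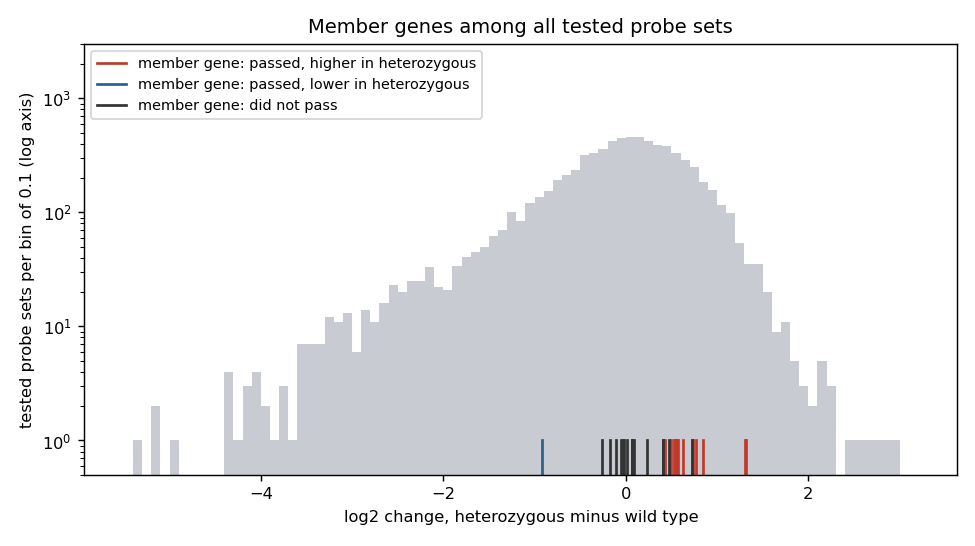
Number of tested probe sets (log axis, bins of 0.1) by log2 change, heterozygous minus wild type, for all 7453 tested probe sets on the deposited scale. Ticks at the base mark the 32 genes. The 15 that passed as higher lie between 0.43 and 1.32, and Gpx3 and Mt1 rank 127 and 132 among all tested probe sets by increase. Txn1 at -0.91 is the 1 that passed as lower. On the sarcomere-centred scale 2 are higher and 11 lower, beside 2.12% and 58.4% of all tested probe sets.

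Further genes of the same chemistry were taken from 5 lists of 97 genes, of which 58 were tested, and up to 4 a direction with the smallest p are named per list. Of these, 18 rose, 10 fell and 30 missed the threshold, and their median log2 change was 0.063 (17.9% and 20.4% of all tested probe sets rose and fell). With arrays centred on the sarcomere list, 2 were higher and 33 lower, beside 2.12% and 58.4% of all tested probe sets. Among 18 further glutathione and thioredoxin genes 9 rose (50%) and 1 fell (5.56%). Glo1, which detoxifies methylglyoxal with glutathione, had 7808 and 7722.5 in the heterozygous pools, against 3829.6 and 4008 in the wild-type pools (1.98-fold, log2 change 0.99, SE 0.14, adjusted p = 8.60e-04). The others with the smallest p were Gstm3 (log2 change 0.88, SE 0.14, adjusted p = 0.0018), whose dimmer probe set did not pass, Mgst3, a microsomal transferase (log2 change 0.76, SE 0.16, adjusted p = 0.00545), and Gstk1, the mitochondrial and peroxisomal kappa transferase (log2 change 0.70, SE 0.16, adjusted p = 0.00929). Mgst2, another microsomal transferase, fell (log2 change -1.76, SE 0.38, adjusted p = 0.00628). It had 157.3 and 269.5 in the heterozygous pools, against 740.5 and 658.5 in the wild-type pools. Like Mt4, it passed the filter on dim probe sets through its wild-type signals. Its other probe set was too dim to test, with overlapping pools (means of 209 in heterozygous and 116 in wild-type pools). The calls of Mgst3 and Gstk1 ended without heterozygous pool 1 (0.63 and 0.56) and, with that of Mgst2, with dim probe sets kept in. Centred on the sarcomere list, 7 of these 18 genes were lower, beside 58.4% of all tested probe sets, and the other 11 did not pass.

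NADPH, which feeds both the glutathione and the thioredoxin reductases, is supplied by several routes. Of 8 tested genes listed under NADPH supply 2 rose and 2 fell, 25% each way. That is near the 17.9% higher and 20.4% lower of all tested probe sets. Both that rose encode mitochondrial enzymes: Idh2, the NADP-dependent isocitrate dehydrogenase, had 30046 and 27093 in the heterozygous pools, against 16164 and 12122 in the wild-type pools (log2 change 1.03, SE 0.16, adjusted p = 0.0015), and Nnt, the transhydrogenase of the inner membrane, had 21475 and 27149 in the heterozygous pools, against 10998 and 11981 in the wild-type pools (log2 change 1.07, SE 0.15, adjusted p = 8.77e-04). Both that fell belong to the non-oxidative pentose phosphate pathway of the cytosol, whose own steps do not make NADPH. Tkt, transketolase, had 4081 and 4648 in the heterozygous pools, against 12833 and 13190.4 in the wild-type pools and was 2.99-fold lower (log2 change -1.58, SE 0.14, adjusted p = 8.08e-05). Taldo1, transaldolase, fell as well (log2 change -0.44, SE 0.15, adjusted p = 0.0479) but lost its call without any 1 of the 4 pools (-0.54 to -0.34), under quantile normalization (-0.43), with arrays at a common median (-0.26), with dim probe sets kept in and without a trend in the spread. The Idh2 and Nnt calls ended with dim probe sets kept in. Relative to the sarcomere genes the log2 changes of Idh2 and Nnt were 0.31 and 0.35, neither of which passed. There 6 of the 8 genes were lower, beside 58.4% of all tested probe sets. In the same pools the summed lymphocyte and thymus markers were 8.84-fold lower, and their part in the decreases was not tested.

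Among NRF2 regulators and further targets, 4 of 13 rose (30.8%) and 1 fell (7.69%), beside 17.9% and 20.4% of all tested probe sets. Bach1, a repressor that competes with NRF2 at its elements, had 2383 and 2438 in the heterozygous pools, against 5346 and 7548 in the wild-type pools and was 2.64-fold lower (log2 change -1.40, SE 0.19, adjusted p = 6.58e-04). Nfe2l1, a relative of NRF2, rose (log2 change 0.96, SE 0.14, adjusted p = 0.00103), although its dimmer probe set did not pass. Aldh2, the mitochondrial aldehyde dehydrogenase (log2 change 0.80, SE 0.15, adjusted p = 0.00338), Sqstm1, the autophagy adaptor that also binds KEAP1 (log2 change 0.76, SE 0.14, adjusted p = 0.00359), and Sesn1, a sestrin (log2 change 0.63, SE 0.14, adjusted p = 0.00778), rose too. The dimmer probe sets of Aldh2 did not pass. The calls of Sqstm1 and Sesn1 ended without heterozygous pool 1 (0.72 for Sqstm1) and heterozygous pool 2 (0.55 for Sesn1), and those of Bach1 and Sqstm1 with dim probe sets kept in. With arrays centred on the sarcomere list 7 of the 13 were lower, beside 58.4% of all tested probe sets, and the other 6 did not pass. Keap1 itself, which holds NRF2 down and is named here outside that choice, was too dim to test.

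Metal and iron genes gave 1 increase (9.09%) and 3 decreases (27.3%) among 11 tested, not far from the 17.9% and 20.4% of all tested probe sets. Cp, the ferroxidase ceruloplasmin, had 3053 and 2830.0 in the heterozygous pools, against 1379.5 and 1367 in the wild-type pools and rose 2.14-fold (log2 change 1.10, SE 0.16, adjusted p = 0.00104). Besides Mt4, the decreases were those of Ireb2, an iron regulatory protein (log2 change -0.66, SE 0.23, adjusted p = 0.0475), and Atox1, a copper chaperone (log2 change -0.47, SE 0.15, adjusted p = 0.0388). The Ireb2 call ended without any 1 of the 4 pools (-0.82 to -0.50), under quantile normalization (-0.51), under cyclic loess (-0.55), with arrays at a common median (-0.48), with the pool number as a block and with dim probe sets kept in, and the Atox1 call ended without any 1 of the 4 pools (-0.64 to -0.31), with arrays at a common median (-0.29), with dim probe sets kept in and without a trend in the spread. Of the genes listed as oxidant sources, 2 of 8 rose (25%) and 3 fell (37.5%), against the same background of 17.9% and 20.4%. Aox1, aldehyde oxidase, had 1622.5 and 1570.1 in the heterozygous pools, against 579 and 568.5 in the wild-type pools (log2 change 1.48, SE 0.19, adjusted p = 5.78e-04). Ucp3, on the same list, is the muscle mitochondrial uncoupling protein and not itself a source of oxidants. It had 946 and 1045 in the heterozygous pools, against 339 and 358 in the wild-type pools (log2 change 1.51, SE 0.25, adjusted p = 0.0017). The 3 that fell are parts of the phagocyte NADPH oxidase: Rac2, found mainly in blood cells, had 2127 and 1822 in the heterozygous pools, against 8754 and 8706 in the wild-type pools (log2 change -2.15, SE 0.15, adjusted p = 2.38e-05), and Cyba (log2 change -1.31, SE 0.15, adjusted p = 2.95e-04) and Ncf4 (log2 change -1.07, SE 0.27, adjusted p = 0.014) fell as well. The Ncf4 call ended without heterozygous pool 1 (-0.92), without wild-type pool 1 (-0.84) and with dim probe sets kept in. Lymphocyte and thymus markers fell in the same pools, 10 of 10, whereas 1 of 6 macrophage markers fell, and the part of either cell type in these decreases was not tested. Aox1 and Ucp3 stayed higher with arrays centred on the sarcomere list (0.76 and 0.79), and Cp at 0.38 did not pass there.

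**Figure D5:**
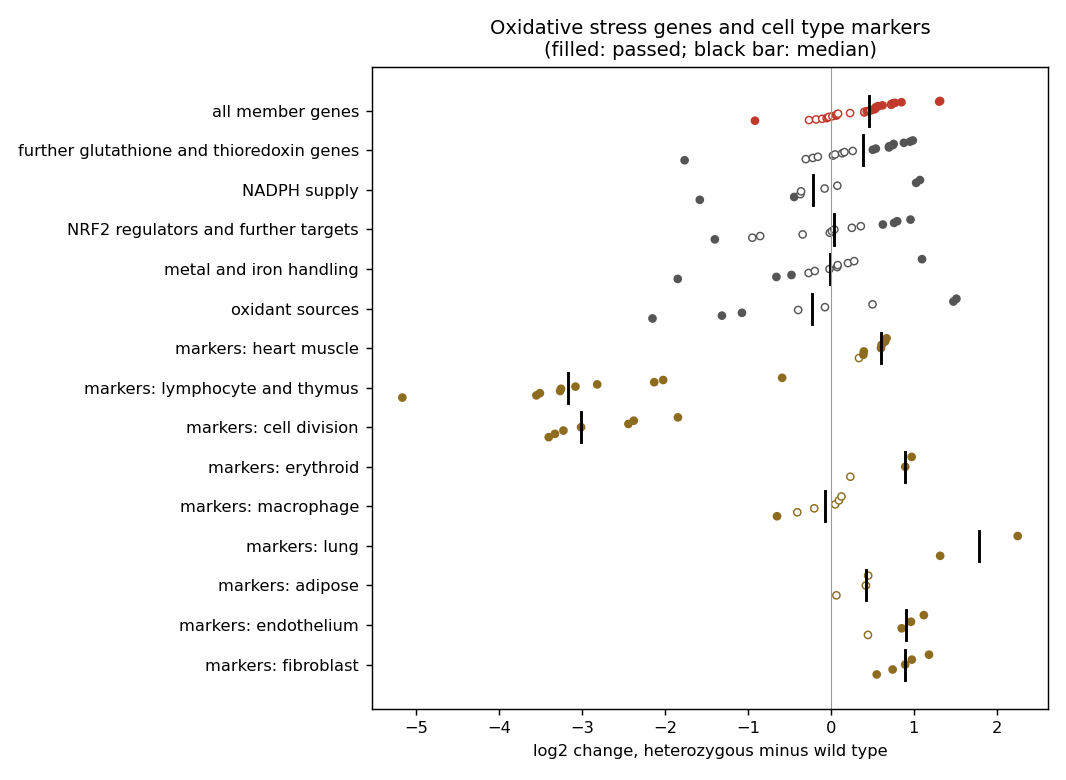
Log2 change, heterozygous minus wild type on the deposited scale, of every tested gene in the set, in the 5 further lists and in the marker lists (1 point per gene; filled points passed; black bars are medians). The set's median of 0.45 lies below that of the heart muscle markers (0.60), and lymphocyte and thymus markers lie lowest (median -3.16); centring arrays on the sarcomere list lowers every point by 0.72 and puts the set's median at -0.26.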

How the data were processed

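Total RNA of 4 pools of hearts, 2 per genotype, was hybridised to 1-colour oligonucleotide arrays. The deposited values are the authors' signal intensity per probe set, per the labels and files, already scaled: trimmed means (2% off each end) differed by at most 1.00958 times between arrays. Which software made them was not given in the sources used here. Control probe sets (66), which heterozygous pool 2 lacks, were left out. Signals were floored at 36.25 (the 10th percentile), which touched 16 of 29812 tested values, and log2-transformed. The 40% dimmest of 12422 probe sets by mean over all pools were not tested. Of 12488 probe sets, 10855 had 1 gene symbol, 396 several and 1237 none in the platform annotation, and 10839 symbols were found by gene ID in RefSeq.

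Heterozygous and wild-type pools were compared with limma 3.58.1 in R 4.3.3 (lmFit, eBayes with a trend), with Benjamini-Hochberg adjustment over all 7453 tested probe sets and a threshold of 0.05. The steps were tested on simulated data. The number of arrays limits the precision. Pools of 1 genotype correlated at 0.970 and 0.971, and pools of different genotypes at 0.845 to 0.856, across probe sets. All 35 genes are accounted for, and from each further list up to 4 genes per direction with the smallest p are named. The genes and lists were chosen with earlier results of these data known. Tables and figures used Python 3.11.15, pandas 2.3.3, numpy 2.4.6 and matplotlib 3.10.9. Alternatives covered scaling, floor, filter, the trend, gene means, the pool number and leaving out each pool.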

Additional observations from a re-analysis of the deposited data

How the results depend on the processing

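The scaling of the arrays mattered most. Centring on the sarcomere list gave 2 higher and 11 lower of the 32 genes, 2 higher and 33 lower of the further genes, 158 higher and 4352 lower of all tested probe sets, and a median of -0.26 for the 32 genes. That alternative lowers all values by construction, and turned Sod3 -0.31, Cat -0.65, Gpx4 -0.19, Prdx2 -0.18, Prdx3 -0.29, Txnip -0.65, Gclc -0.70, Gclm -0.15, Gsr -0.49, Gsta4 -0.096, Gstm1 -0.22, Gstp1 -0.18, Gstt1 -0.32, Hmox1 -0.24, Hmox2 -0.65, Nqo1 -0.18, Nfe2l2 -0.63, Mt2 -0.16, Gstk1 -0.017 and Sesn1 -0.092. The median of the 32 genes was 0.29 under cyclic loess, 0.37 under quantile normalization and 0.63 with arrays at a common median, where the median of all probe sets was 0.18. Of all calls, 62.5% were then higher, against 46.8% as reported and 3.50% with the sarcomere list. The common median turned Sod1 0.14, Gpx1 0.16, Txnrd1 0.0012, Gss 0.075 and Gstt2 0.13, quantile normalization Gpx1 0.088, Txnip -0.024, Gss 0.035 and Gstt2 0.091, cyclic loess Gpx1 0.0012, Txnip -0.086 and Gstt2 0.011, and gene means Cat -0.030 and Gss 0.24, none of which passed as reported; the cause was not tested. With no filter on dim probe sets, which tests 12422, 5 of the 32 genes were higher and 0 lower, 8 further genes higher and 4 lower, and 482 probe sets higher and 724 lower. Without a trend 8 of the 32 were higher.

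Leaving out 1 pool leaves 3 samples, where the lone pool is assumed to vary like the other genotype's. It gave 4 to 11 higher and 0 to 1 lower of the 32 genes (median 0.38 to 0.47), 11 to 17 higher and 7 to 8 lower further genes, and 630 to 1125 higher and 1077 to 1164 lower probe sets. The lowest counts of higher calls came without a heterozygous pool: 631 probe sets without pool 1 and 630 without pool 2 (36.9% of all calls each), and 11 further genes without pool 1. Values that turned ranged as follows: Sod1 -0.076 to 0.0073, Cat -0.070 to 0.21, Gpx1 -0.26 to 0.21, Gclc -0.14 to 0.17, Gss -0.31 to 0.11, Gstt2 -0.31 to 0.20, Hmox2 -0.14 to 0.27, Nfe2l2 -0.097 to 0.27. Both floors changed no call of the 32 genes.

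Pools share numbers 1 and 2 between genotypes, but the labels do not say that a number marks a shared batch. Deviations of same-numbered pools correlated at 0.158. With the pool number as a block, 16 of the 32 genes were higher and 1 lower, Hmox1 being the gene added, and the median stayed at 0.45. Among further genes 19 were higher and 9 lower, and among all probe sets 1445 and 1590. With 2 pools per genotype, small changes cannot be told from the spread between pools.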
